A study of Mus musculus with 8 samples.

Results

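Immunity-related GTPases were followed in EpCAM-positive cells sorted from pancreatic tumours of mice that received gemcitabine together with an antibody against the cytokine LIF (leukaemia inhibitory factor) or with control IgG. The members were 8 genes chosen by symbol among the 24537 genes of the deposited count table: Irgm1, Irgm2, Igtp, Iigp1, Tgtp1, Tgtp2, Ifi47 and Gvin1. The tumours came from FVB/NJ mice of the KPCL line, whose genotype includes Tp53f/f, Rosa26LSL-Luc and Pdx1-Cre, so the Cre recombinase acted in cells of the Pdx1-expressing pancreatic lineage. Dosing began at 42 to 43 days of age, and the mice were about 48 days old at collection. In the anti-LIF arm 4 mice were given 50 mg/kg gemcitabine (days 1 and 4) and 25 mg/kg anti-LIF antibody (days 1, 3 and 5). In the IgG arm 4 mice were given the same gemcitabine doses and 25 mg/kg control IgG on the same days. Both arms therefore carried gemcitabine, and every difference below is one between antibodies on that background. Tumours were dissected on day 6, dissociated and sorted one by one, with 1 polyA RNA library per mouse. The libraries are called anti-LIF 1 (titled KPCL-PCC_227_GA), anti-LIF 2 (KPCL-PCC_310_GA), anti-LIF 3 (KPCL-PCC_354_GA), anti-LIF 4 (KPCL-PCC_391_GA), IgG 1 (KPCL-PCC_203_G), IgG 2 (KPCL-PCC_343_G), IgG 3 (KPCL-PCC_345_G) and IgG 4 (KPCL-PCC_393_G). The same number in both arms is no pairing. Values of single libraries are given in that order.

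Immunity-related GTPases (IRGs) are interferon-induced proteins that gather on the membranes of vacuoles holding intracellular microbes such as Toxoplasma gondii and help to destroy them. In mice they fall into regulators and effectors. The regulators Irgm1, Irgm2 and Igtp (also called Irgm3) carry a methionine in place of the usual lysine of the nucleotide-binding loop, are called GMS proteins after that loop, sit on the cell's own membranes and hold the effectors in the inactive state. The effectors, called GKS proteins, include Iigp1 (Irga6), the Tgtp pair (Irgb6) and Ifi47 (Irgd). Gvin1 belongs to a separate family of very large interferon-inducible GTPases. Interferon-gamma acts through its receptor and the kinases JAK1 and JAK2 on promoters with gamma-activated sites (GAS). Type I interferon acts on promoters with interferon-stimulated response elements (ISRE), which IRF proteins also bind.

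The promoter sequences are shown first because the members shared a feature there that the choice by symbol did not use. RefSeq promoters, from 250 bases before to 50 bases after the annotated start on GRCm38.p6 (the assembly that mm10 is built on), were matched by symbol for 6 of the 8 members. Iigp1 and Gvin1 had no entry. Both strands were searched for the ISRE core, written as GAAA, any 2 bases and GAAA, and for the GAS core, written as TTC, any 3 bases and GAA. The ISRE core was found in 5 of the 6 members, against 3.44% of all 32851 promoters, and the GAS core in 4 of the 6, against 8.3%. Related genes held them too. The ISRE core was in 5 of 5 guanylate-binding protein genes with an entry and in 4 of 7 further IRG and GVIN (Gvin1 family) genes. The GAS core was in 2 of 5 and 2 of 7 in the same order. In Irgm2, Igtp, Tgtp1 and Tgtp2 the GAS core came first, then 2 bases, then the ISRE core. This joint arrangement was present in 5 of the 32851 promoters (0.0152%): these 4 members and Gm12185 (synonym Irgb2b1 in RefSeq), an IRG gene outside the member list. The order and spacing searched for were those found in these 4 members, and the search was not planned. Their own matches were thus fixed in advance, and 0.0152% is no independent measure of rarity. The 100 bases before the start of each are given 5′ to 3′ on the strand of the gene, with the matches in capitals.
Irgm2, chr11:58214877-58214976, plus strand: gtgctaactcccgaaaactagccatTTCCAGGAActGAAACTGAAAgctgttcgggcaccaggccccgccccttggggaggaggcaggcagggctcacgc
Igtp, chr11:58199456-58199555, plus strand: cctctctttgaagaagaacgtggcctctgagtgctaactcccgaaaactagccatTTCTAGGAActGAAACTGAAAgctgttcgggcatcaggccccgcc
Tgtp1, chr11:48992247-48992346, minus strand: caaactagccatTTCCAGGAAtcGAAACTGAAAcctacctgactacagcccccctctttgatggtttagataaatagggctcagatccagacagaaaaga
Tgtp2, chr11:49064213-49064312, minus strand: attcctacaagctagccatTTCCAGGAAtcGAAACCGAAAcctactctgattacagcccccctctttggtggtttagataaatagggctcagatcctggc
Gm12185, chr11:48927183-48927282, minus strand: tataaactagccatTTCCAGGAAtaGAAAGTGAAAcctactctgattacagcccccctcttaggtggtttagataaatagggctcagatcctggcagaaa
Irgm1, chr11:48871421-48871520, minus strand: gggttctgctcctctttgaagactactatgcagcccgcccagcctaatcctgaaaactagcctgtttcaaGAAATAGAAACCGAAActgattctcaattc

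In the 5 promoters with the joint arrangement the 8 bases just before the GAS core were the same run, ctagccat. Beyond that run, the printed sequences were closely alike in Irgm2 and Igtp, and long stretches were shared by Tgtp1, Tgtp2 and Gm12185. The 5 promoters are therefore not independent occurrences among the 32851. The GAS core ended at position -67 in Irgm2, -37 in Igtp, -80 in Tgtp1, -73 in Tgtp2 and -78 in Gm12185, counted from the annotated start. Irgm1 held 2 ISRE matches that overlap by 4 bases and no GAS match, and its annotated RefSeq start lies upstream of the end of the counted transcript. Ifi47, which changed with anti-LIF as described below, held neither run of letters in its window. Across genes that passed the expression filter, the ISRE core stood in 5.34% of the promoters of genes higher with anti-LIF, in 2.15% of those of genes lower and in 2.83% of those of genes that were not called. A match is only a run of letters, and binding was not measured.

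The 8 libraries held 15135457 to 18972281 reads in genes. Genes were tested with edgeR's quasi-likelihood test on the counts, with Benjamini-Hochberg adjustment over 14711 tested genes and an adjusted threshold of 0.05. Fold changes are anti-LIF over IgG, and CPM values are counts scaled to the trimmed-mean library size. The labelled population was EpCAM-positive, but the libraries also held transcripts of other cells. Epcam itself had 194 to 353 CPM in anti-LIF libraries and 479 to 664 CPM in IgG libraries, and Ptprc, which encodes the leukocyte antigen CD45, had 470 to 579 CPM and 239 to 321 CPM in the same order of arms. The 18 genes of a myeloid list took 2.65 to 4.46% of the counts in anti-LIF libraries and 1.28 to 1.71% in IgG libraries, and the 15 genes of an epithelial list took 0.186 to 0.370% and 0.596 to 0.735%. Neither pair of ranges overlapped (exact two-sided permutation test, p = 0.0286 for each list, the smallest that 4 against 4 allows). Member reads relative to both lists are given after the members' own values. In such bulk libraries, fewer cells of a type and less RNA per cell cannot be told apart.

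Of the 8 members, 6 passed the filter on low counts. Of those 6, 5 were higher with anti-LIF, between 1.57 and 5.24-fold, and 0 were lower, where 15.7% of all tested genes were higher and 16.5% lower. Over all tested genes that was 2303 higher and 2428 lower, against 1430 higher and 3567 lower when counts were scaled by library size alone and 1551 and 3402 in the same order on log2 FPKM with a pseudocount of 1. The median log2 fold change of the 6 tested members was 1.23, against -0.0063 over all tested genes. In 5 of the 6, the lowest anti-LIF library exceeded the highest IgG library, as in 17.6% of all tested genes. On the deposited FPKM scale that held for 3 of the 6 (Igtp, Iigp1 and Ifi47). The share of all tested genes was not counted on the FPKM scale, so the 17.6% does not apply there. Tgtp1 and Tgtp2 did not pass the filter and were not part of that fit.

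**Figure D1:**
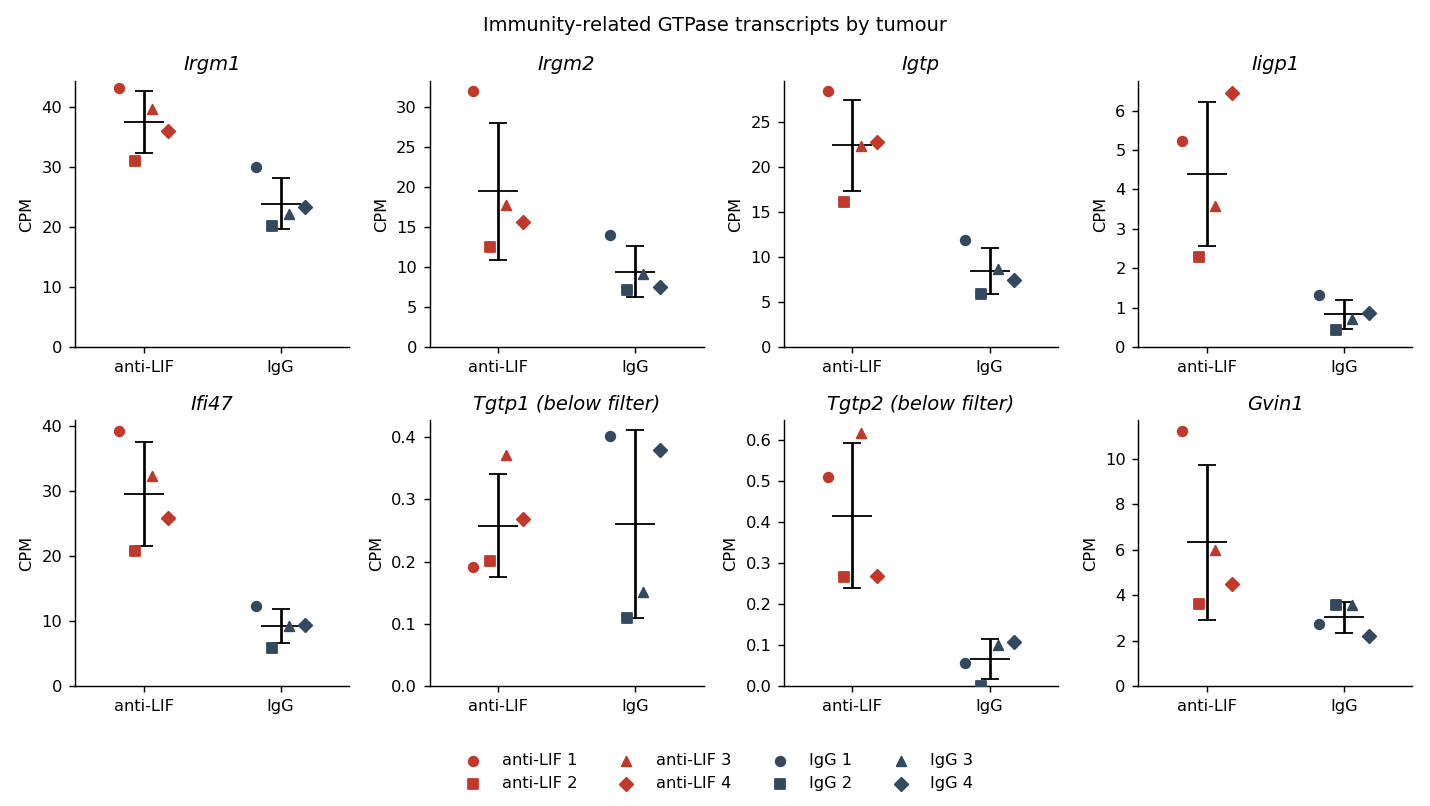
Level of each of the 8 members in CPM (y axis, linear, from 0) in anti-LIF libraries (left, red) and IgG libraries (right, blue). Each symbol is 1 mouse, the long line is the mean of 4 libraries and the bars are ± SD. Igtp, Iigp1 and Ifi47 show the widest separation of the arms, Irgm2 overlaps, and Tgtp1 and Tgtp2 lie below 1 CPM in every library.

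Among the regulators, Irgm1 (chromosome 11, 48865249 to 48871346, minus strand, mm10), a GTPase of the Golgi, mitochondria and lysosomes, had 43.1, 31.0, 39.7 and 36.0 CPM in libraries anti-LIF 1 to 4, against 29.9, 20.2, 22.1 and 23.3 CPM in libraries IgG 1 to 4. The arms did not overlap, but the lowest anti-LIF library (anti-LIF 2) lay just above the highest IgG library (IgG 1). On the deposited FPKM scale the arms overlapped, with 11.02 FPKM in anti-LIF 2 and 11.7 FPKM in IgG 1. Irgm1 averaged 37.4 ± 5.19 CPM with anti-LIF and 23.9 ± 4.21 CPM with IgG (SD, n = 4 each), a log2 fold change of 0.65 ± 0.15 (SE) or 1.57-fold (edgeR adjusted p = 0.0124).

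Igtp (chromosome 11, 58199556 to 58207592, plus strand), a regulator of the endoplasmic reticulum and lipid droplets, had 28.5, 16.2, 22.4 and 22.8 CPM in the same anti-LIF libraries, against 11.9, 5.88, 8.71 and 7.46 CPM in the IgG libraries. Every anti-LIF library lay above every IgG library. The means were 22.4 ± 5.03 CPM with anti-LIF and 8.48 ± 2.54 CPM with IgG, a log2 fold change of 1.40 ± 0.24 or 2.65-fold (edgeR adjusted p = 0.00523).

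Irgm2 (chromosome 11, 58214977 to 58222783, plus strand), a Golgi-associated regulator and the neighbour of Igtp, had 32.0, 12.6, 17.7 and 15.6 CPM in the anti-LIF libraries, against 14.1, 7.14, 9.12 and 7.46 CPM in the IgG libraries. The arms overlapped, because IgG 1 lay above anti-LIF 2, and anti-LIF 1 stood far above the other three anti-LIF libraries. The means were 19.5 ± 8.62 CPM with anti-LIF and 9.44 ± 3.19 CPM with IgG, a log2 fold change of 1.04 ± 0.33 (edgeR adjusted p = 0.0382). The call was lost in 5 of the 8 fits that left out a single library: anti-LIF 1 (log2 fold change 0.70, adjusted p = 0.0696), anti-LIF 3 (adjusted p = 0.0655), IgG 2 (adjusted p = 0.101), IgG 3 (adjusted p = 0.0814) and IgG 4 (adjusted p = 0.0929). Without anti-LIF 1 and IgG 1 together, the log2 fold change was 0.95 and passed (adjusted p = 0.0128).

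Among the effectors, Iigp1, a GTPase that coats the vacuole of Toxoplasma gondii, had the highest fold change of the 6 tested members and a low level. It had 5.24, 2.27, 3.58 and 6.45 CPM in the anti-LIF libraries, against 1.32, 0.439, 0.709 and 0.865 CPM in the IgG libraries, from 34 to 96 reads and from 8 to 23 reads per library. Every anti-LIF library lay above every IgG library. The means were 4.38 ± 1.83 CPM with anti-LIF and 0.833 ± 0.369 CPM with IgG, a log2 fold change of 2.39 ± 0.42 or 5.24-fold (edgeR adjusted p = 0.00543).

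Ifi47 (chromosome 11, 49076587 to 49096987, plus strand) had 39.1, 20.8, 32.3 and 25.9 CPM in the anti-LIF libraries, against 12.4, 5.93, 9.32 and 9.46 CPM in the IgG libraries. The groups were well apart. The means were 29.5 ± 7.94 CPM with anti-LIF and 9.27 ± 2.64 CPM with IgG, a log2 fold change of 1.67 ± 0.26 or 3.18-fold (edgeR adjusted p = 0.00440).

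The effector genes Tgtp1 (chromosome 11, 48985329 to 48992246, minus strand) and Tgtp2 (49057196 to 49064212, minus strand) had single-digit read counts in nearly every library. Tgtp1 had 3, 3, 6 and 4 reads in the anti-LIF libraries, 16 in all, against 7, 2, 3 and 7 reads in the IgG libraries, 19 in all. Tgtp2 had 8, 4, 10 and 4 reads in the anti-LIF libraries, 26 in all, against 1, 0, 2 and 2 reads in the IgG libraries, 5 in all. The ranges overlapped for Tgtp1 and did not for Tgtp2. With no filter on low counts, edgeR gave Tgtp1 a log2 fold change of 0.00080 (adjusted p = 0.999) and Tgtp2 one of 2.51 (adjusted p = 0.0220), and DESeq2 gave 0.0091 (adjusted p = 0.994) and 2.65 (adjusted p = 0.0168). Their transcripts were 99.79% identical over aligned bases, with 6 mismatches, so the split of reads between them is uncertain. Together they had 11, 7, 16 and 8 reads with anti-LIF and 8, 2, 5 and 9 reads with IgG, and those ranges overlapped.

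Gvin1 (chromosome 7, 105895119 to 105953970, minus strand) had 11.2, 3.61, 5.99 and 4.50 CPM in the anti-LIF libraries, against 2.75, 3.57, 3.60 and 2.22 CPM in the IgG libraries. The arms did not overlap, but the lowest anti-LIF library and the highest IgG library differed only in the third digit. On the deposited FPKM scale they overlapped, with 0.322 FPKM in anti-LIF 2 and 0.328 FPKM in IgG 2. The means were 6.33 ± 3.41 CPM with anti-LIF and 3.03 ± 0.671 CPM with IgG, a log2 fold change of 1.06 ± 0.36 that did not pass (edgeR adjusted p = 0.0513). It passed in DESeq2 (1.08, adjusted p = 0.0183) and when anti-LIF 2 was left out (1.27, adjusted p = 0.0285), and it was 0.63 (adjusted p = 0.0987) without anti-LIF 1. Gm4070 is annotated on almost the same stretch (chromosome 7, 105895119 to 105953967, minus strand). Gvin1 and Gm4070 had the same read count in 8 of 8 libraries, so Gvin1 stands for reads that were counted under both names.

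The libraries kept much the same order from member to member. Anti-LIF 1 was the highest of its arm for 5 of the 6 tested members and anti-LIF 2 the lowest for 6 of 6. In the IgG arm IgG 1 was the highest for 5 of 6 and IgG 2 the lowest for 5 of 6. How many of all tested genes had the same order was not counted, so the order is not shown to be particular to the members. Anti-LIF 1 also had the highest myeloid share (4.46%) and the lowest epithelial share (0.186%) of the 8. Anti-LIF 2 (2.65%) and IgG 2 (1.28%) had the lowest myeloid share of their arms. The highest myeloid share of the IgG arm was in IgG 3 (1.71%), not in IgG 1 (1.59%). With anti-LIF 1 and IgG 1 both left out, 5 of 6 tested members were still higher with anti-LIF. Over all genes tested in that fit, 1919 were higher and 1950 lower.

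Reads were also checked for sharing between genes, by asking which 50-base windows of each member's GENCODE M21 transcript occur in transcripts of other genes. The share was 1.0% for Irgm1, 3.19% for Iigp1, 3.71% for Ifi47, 6.92% for Irgm2 and 12.3% for Igtp. It was 91.4% for Tgtp1, 90.6% for Tgtp2 and 99.2% for Gvin1. Irgm2 and Igtp shared windows mostly with each other, and their transcripts were 82.9% identical over aligned bases. As the read length was not stated in the labels, 50 bases is a setting of this comparison.

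Levels were compared between genes on the deposited FPKM scale, which accounts for transcript length. In the anti-LIF arm Ifi47 (12.9 ± 2.78 FPKM, SD, n = 4) and Irgm1 (12.8 ± 1.30) came first and did not differ beyond their spread. Igtp (8.39 ± 1.45), Irgm2 (4.13 ± 1.501), Iigp1 (1.13 ± 0.465) and Gvin1 (0.532 ± 0.245) followed, and Tgtp2 (0.112) and Tgtp1 (0.0705) came last. In the IgG arm Irgm1 (8.98 ± 1.90 FPKM) stood first, before Ifi47 (4.49 ± 1.40), Igtp (3.51 ± 1.15), Irgm2 (2.25 ± 0.831), Gvin1 (0.284 ± 0.0543) and Iigp1 (0.238 ± 0.114), with Tgtp1 (0.0785) and Tgtp2 (0.0200) last. Ifi47 and Igtp lay within a spread of each other there, as did Gvin1 and Iigp1. The effectors Iigp1, Tgtp1, Tgtp2 and Ifi47 made up 33.8 to 37.4% of the summed FPKM of regulators and effectors in anti-LIF libraries and 20.6 to 26.7% in IgG libraries. That effector sum was mostly Ifi47, at 12.9 of 14.2 FPKM on average with anti-LIF and 4.49 of 4.83 FPKM with IgG. The shared windows of Tgtp1 (91.4%), Tgtp2 (90.6%) and Gvin1 (99.2%) limit this ranking. How reads matching several genes were counted was not stated in the sources used here. The FPKM of these genes may therefore not give their level, and the Tgtp part of the effector sum carries the same limit.

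Whether the members changed by the same factor was tested by dividing each member's reads by the Irgm1 reads of the same library. Ifi47 had 0.778 ± 0.105 reads per Irgm1 read with anti-LIF and 0.384 ± 0.0600 with IgG (SD, n = 4 each). Igtp had 0.595 ± 0.0635 with anti-LIF and 0.350 ± 0.0532 with IgG. Iigp1 had 0.116 ± 0.0465 with anti-LIF and 0.0338 ± 0.00939 with IgG. These 3 ratios did not overlap between the arms (exact two-sided permutation p = 0.0286, adjusted over 5 ratios to 0.0476 for each). The ratios of Irgm2 (0.507 with anti-LIF and 0.389 with IgG, exact permutation p adjusted to 0.286) and Gvin1 (0.163 and 0.132, adjusted to 0.457) overlapped.

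The same reads were set against marker reads of the cell types in the libraries. Per 10000 reads of the epithelial list, each of the 6 tested members was higher with anti-LIF without overlap, by 1.72 to 3.46 on the log2 scale (exact permutation p = 0.0286, also after adjustment over 6 ratios). That list itself took 0.186 to 0.370% of the counts with anti-LIF and 0.596 to 0.735% with IgG. A gene with a constant share of the counts would therefore separate the arms in the same way, so this ratio cannot single out the members. Per 10000 reads of the myeloid list, the arms overlapped for each of the 6, and none passed. That list itself took 2.65 to 4.46% of the counts with anti-LIF and 1.28 to 1.71% with IgG. Any gene whose share of the counts rose by a similar factor would overlap too. The overlap therefore does not tell which cells held the member reads. Irgm1 had 11.5 ± 2.55 reads per 10000 myeloid reads with anti-LIF and 16.9 ± 2.77 with IgG, a log2 difference of -0.57. Iigp1 had 1.31 ± 0.572 with anti-LIF and 0.582 ± 0.240 with IgG, a log2 difference of 1.17, and Ifi47 had 8.84 ± 1.94 and 6.49 ± 1.55 in the same order of arms. The adjusted exact permutation p of these 6 ratios ran from 0.171 to 0.457. With a myeloid score as a covariate in edgeR, 0 of the 6 members and 0 of the 14711 tested genes passed, and 993 genes had an unadjusted p under 0.05. That score correlated with the arm at 0.949 over the 8 libraries, so the 2 cannot be told apart in that fit.

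**Figure D2:**
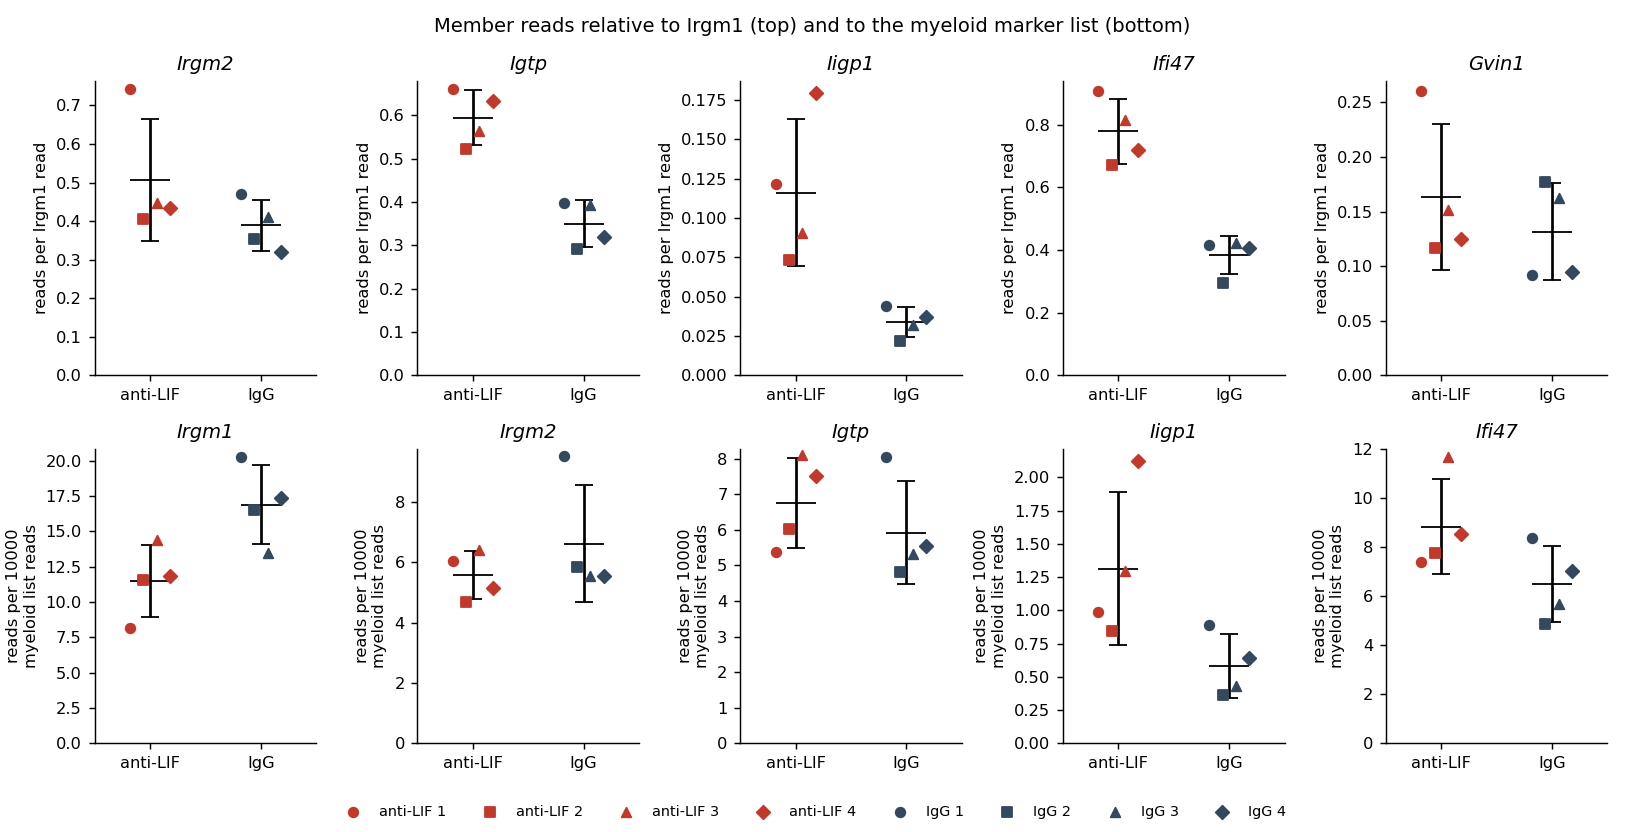
Reads of each member per read of Irgm1 (top row) and reads of 5 of the 6 tested members per 10000 reads of the myeloid marker list (bottom row), on linear axes from 0, in anti-LIF libraries (left, red) and IgG libraries (right, blue). Symbols are mice, the long line is the mean of 4 libraries and the bars are ± SD. Igtp, Iigp1 and Ifi47 separate the arms relative to Irgm1, while every panel of the bottom row overlaps.

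Upstream of the IRGs, transcripts of interferon-gamma itself were almost undetectable. Ifng had 1 read over the 4 anti-LIF libraries and 1 read over the 4 IgG libraries. Of the receptor genes, Ifngr2 had 142 ± 16.6 CPM with anti-LIF and 96.7 ± 12.3 CPM with IgG (log2 fold change 0.55, edgeR adjusted p = 0.00990), while Ifngr1 had 418 ± 108 and 361 ± 32.9 CPM in the same order (0.21, adjusted p = 0.363). Jak1 had 392.6 ± 54.6 CPM with anti-LIF and 300 ± 7.15 CPM with IgG (0.39, adjusted p = 0.0258), and Jak2 had 149 ± 43.0 and 133 ± 23.7 CPM (0.16, adjusted p = 0.571).

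Irf1, a transcription factor induced by interferon, had 104 ± 14.2 CPM with anti-LIF and 81.8 ± 4.58 CPM with IgG, with overlap (log2 fold change 0.35, edgeR adjusted p = 0.0357). Its call was lost in 6 of the 8 fits that left out a single library, namely all but those without anti-LIF 2 or IgG 1, and that of Jak1 in 5 of 8, namely without anti-LIF 3 or any of the 4 IgG libraries. Irf8, an interferon regulatory factor of myeloid and B cells, had 181 ± 36.5 CPM with anti-LIF and 105 ± 11.98 CPM with IgG (0.79, adjusted p = 0.00676). Nlrc5, the transactivator of MHC class I genes, had 48.1 ± 13.5 CPM with anti-LIF and 18.2 ± 3.92 CPM with IgG (1.40, adjusted p = 0.00461). Socs1, a feedback inhibitor of JAK kinases, had 3.50 ± 1.16 and 3.18 ± 0.713 CPM (0.14, adjusted p = 0.736). Of the 12 tested genes of the interferon-gamma list, 5 rose (Ifngr2, Jak1, Irf1, Irf8 and Nlrc5), and the cytokine gene Il18 fell, to 33.0 ± 11.9 CPM with anti-LIF against 81.9 ± 28.8 CPM with IgG (-1.31, adjusted p = 0.0196). The median of the 12 was 0.37. Scaled by library size alone, 3 of the 12 rose, and the same count was reached when anti-LIF 3, IgG 2, IgG 3 or IgG 4 was left out.

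Of 18 tested genes of the type I interferon list, 15 rose, 0 fell and the median log2 fold change was 1.29. That list held no gene for a type I interferon itself, so those transcripts were not looked at. The interferon-gamma list held no IRG or guanylate-binding protein gene. Because the lists differ in make-up, their counts and medians cannot be compared directly. Mx1, which encodes an antiviral dynamin-like GTPase, had 15.0 ± 5.50 CPM with anti-LIF and 3.50 ± 1.12 CPM with IgG (2.10, edgeR adjusted p = 0.00471). Oas1a, an oligoadenylate synthetase, had 20.2 ± 6.42 and 5.87 ± 1.97 CPM in the same order (1.78, adjusted p = 0.00483), and Ifnar2, a chain of the type I receptor, had 118 ± 22.7 and 64.2 ± 6.79 CPM (0.87, adjusted p = 0.00471).

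Guanylate-binding proteins act beside the IRGs on microbial vacuoles. Of 11 tested genes, 8 rose and 0 fell, with a median log2 fold change of 1.15. With 1 library left out, 5 to 7 rose, and 5 was the count without anti-LIF 3 or without IgG 3. Gbp3 had 45.7 ± 9.06 CPM with anti-LIF and 16.4 ± 2.91 CPM with IgG (1.48, edgeR adjusted p = 0.00284), Gbp2 had 29.2 to 53.2 CPM and 13.1 to 22.2 CPM in the same order (1.23, adjusted p = 0.00519), and Gbp7 had 168 ± 36.0 and 91.6 ± 9.28 CPM (0.87, adjusted p = 0.00615).

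Of 19 further IRG and GVIN genes listed, 14 were in the count table and 10 were tested. Those 10 include Gm4070, which repeats the reads of Gvin1 and enters the counts and the median. Of the 10, 5 rose and 2 fell, with a median of 1.16, but only 3 rose and 1 fell without anti-LIF 1 and IgG 1. Also, 3 rose without anti-LIF 1, anti-LIF 4, IgG 2 or IgG 3 alone and 8 rose without anti-LIF 2, and 1 fell without anti-LIF 2, anti-LIF 3, anti-LIF 4, IgG 1, IgG 2 or IgG 4. Gm5431 (synonym Irgb9b8) had 7.53 ± 2.91 CPM with anti-LIF and 2.31 ± 0.501 CPM with IgG (1.70, edgeR adjusted p = 0.00569), and 9930111J21Rik1 had 8.57 ± 1.99 and 4.12 ± 0.936 CPM (1.06, adjusted p = 0.0107). Gm12250 (Irgb10), an effector that acts on bacteria, had 6.81 ± 3.09 and 1.48 ± 0.940 CPM (2.20, adjusted p = 0.0132). Gm12185, which shares the joint promoter arrangement, had 2.23, 0.467, 1.67 and 1.48 CPM in the anti-LIF libraries, against 0.746, 0.604, 0.253 and 0.486 CPM in the IgG libraries. Its arms overlapped and its call (1.48, adjusted p = 0.0462) was lost in 7 of the 8 fits that left out a library, all but that without anti-LIF 2. Irgc1, a member of the family known from testis and not induced by interferon, fell to 0.374 ± 0.125 CPM with anti-LIF, against 3.04 ± 1.53 CPM with IgG (-3.01, adjusted p = 0.00458). Irgq, a divergent IRG-like gene, fell by 0.32 on the log2 scale (adjusted p = 0.0402), and its call was lost in 6 of the 8 such fits, all but those without anti-LIF 1 or IgG 3.

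Proteins of the autophagy conjugation machinery help to direct IRGs and guanylate-binding proteins to vacuoles. Of 16 tested genes of that list, 2 rose, 1 fell and the median was 0.13. Trim21, a ubiquitin ligase, had 21.4 ± 5.21 CPM with anti-LIF and 11.6 ± 1.13 CPM with IgG (0.89, edgeR adjusted p = 0.00820), and Gabarap, an Atg8 protein, had 433 ± 58.3 and 313 ± 23.7 CPM (0.47, adjusted p = 0.0163). Ulk1, a kinase that starts autophagy, had 69.8 ± 10.4 and 94.1 ± 6.94 CPM (-0.43, adjusted p = 0.0205). Scaled by library size alone, 5 of the 16 fell. The count that rose was 1 without IgG 2, and 0 fell without anti-LIF 2, anti-LIF 3 or IgG 2.

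**Figure D3:**
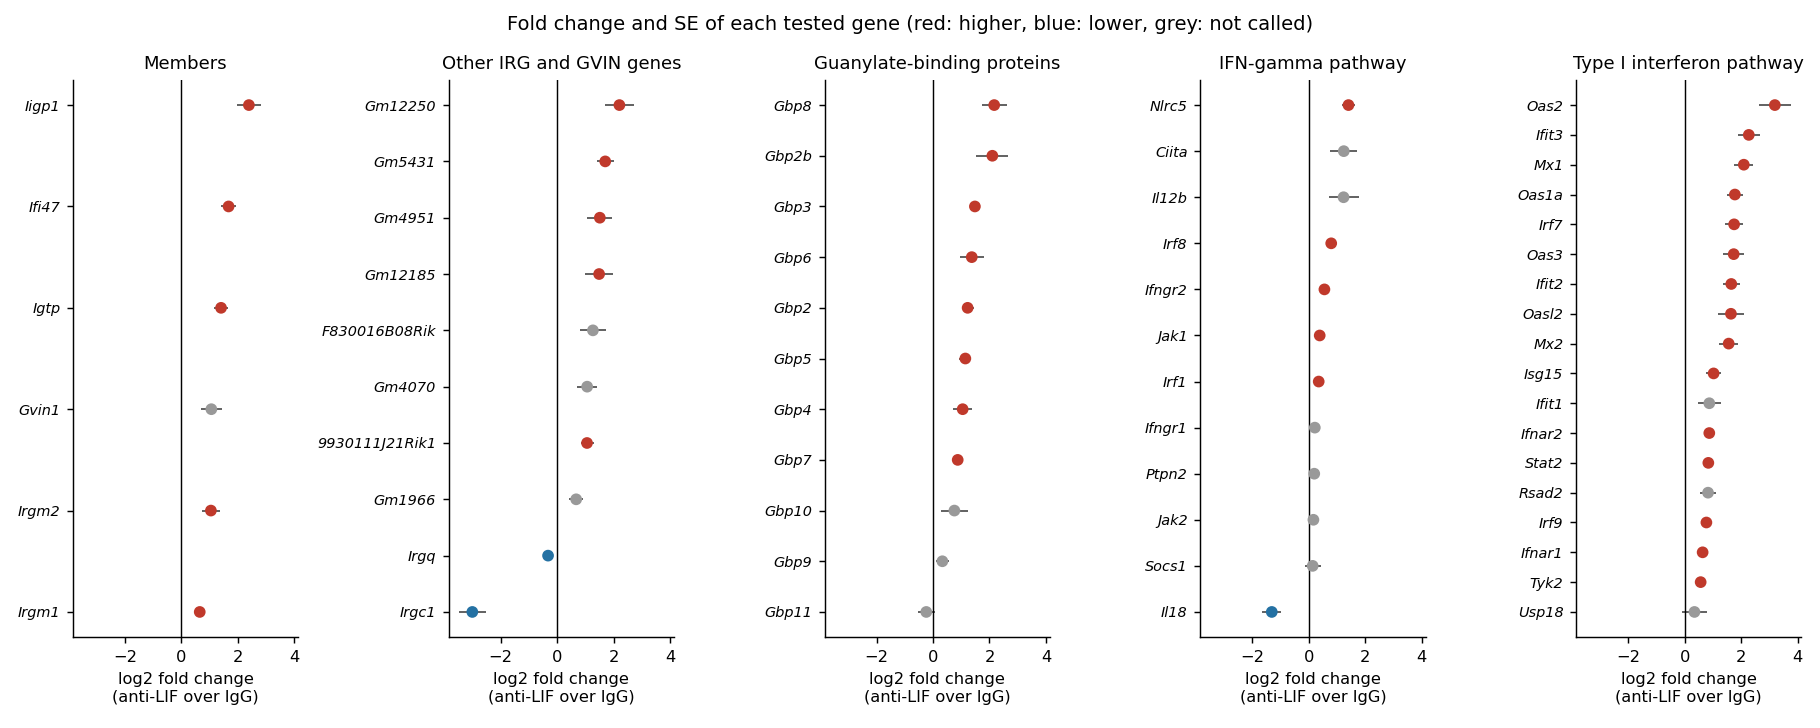
Log2 fold change, anti-LIF over IgG (x axis), with its SE for each tested member and each tested gene of 4 lists. Red points passed edgeR's adjusted threshold as higher with anti-LIF, blue points as lower and grey points did not pass. Most points of the member, guanylate-binding protein and type I interferon panels lie right of 0, while the interferon-gamma panel mixes Nlrc5 at 1.40 with Socs1 at 0.14 and Il18 at -1.31.

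Of the 8 members, 6 lie on chromosome 11 in a pair of clusters, which allowed a comparison with neighbours outside the family. Around Irgm1, Tgtp1, Tgtp2 and Ifi47, between 48800360 and 49263024, 5 of 5 tested IRG genes were higher with anti-LIF, at log2 fold changes of 0.65 to 1.70. Of 7 tested other genes there, 2 were higher, Psme2b (0.73) and Mgat1 (0.75), and the range was -0.67 to 0.75. Around Igtp and Irgm2, between 58104153 and 58347728, 3 of 3 tested IRG genes were higher, at 1.04 to 2.20. Of 6 tested other genes there, Zfp692 (0.48) alone was higher, and the range was -0.06 to 0.48. Psme2b, a proteasome activator gene, lies between Gm12185 and 9930111J21Rik1 and partly overlaps the second on the same strand, so reads in the overlap cannot be assigned to either.

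**Figure D4:**
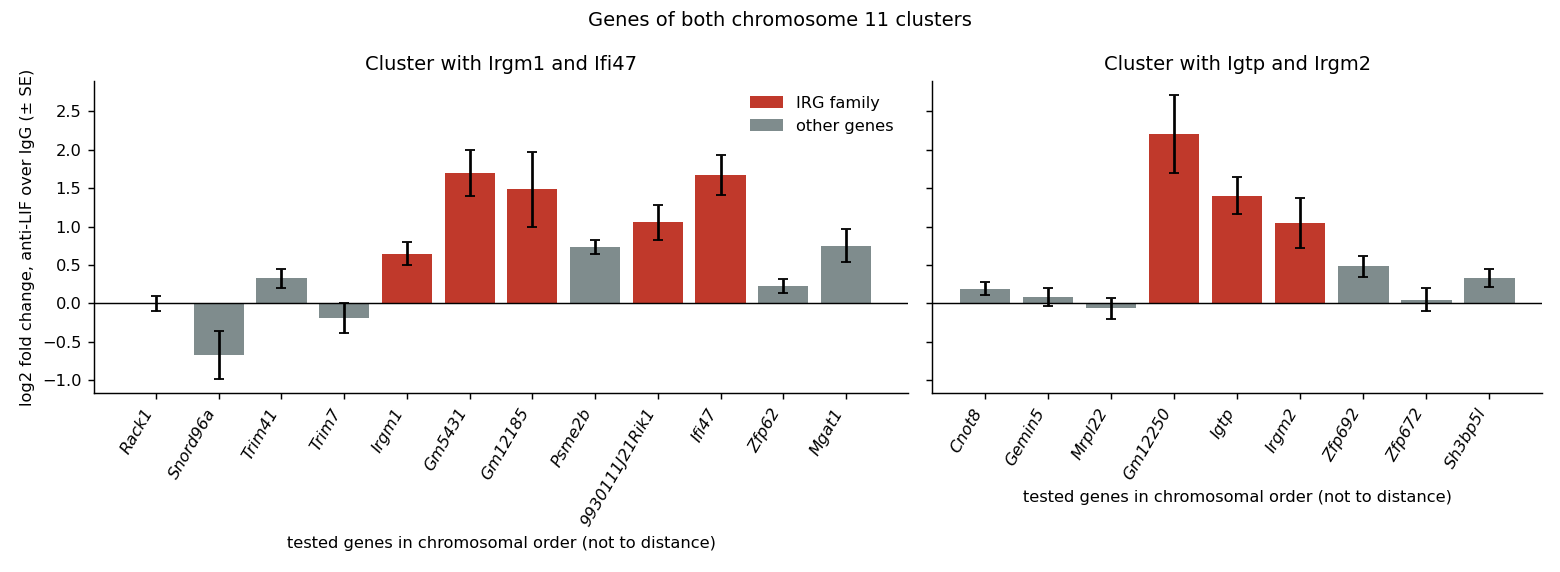
Log2 fold change, anti-LIF over IgG (y axis), with its SE for each tested gene of both chromosome 11 clusters, in chromosomal order. Red bars are IRG genes and grey bars are other genes. All 8 IRG bars lie above 0.6, and the other genes lie between -0.67 and 0.75.

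Genes outside the family were ranked by how closely their log2 CPM over the 8 libraries followed the mean profile of the 6 tested members, each centred on its own mean. The nearest was Tmem176b, with a root mean square distance of 0.0791, followed by Ddx58 (0.0874), Nlrc5 (0.102), B2m (0.102) and Parp14 (0.107), against a median of 0.776 over tested genes. B2m, the light chain of MHC class I, had 1489 ± 414 CPM with anti-LIF and 609 ± 94.1 CPM with IgG (log2 fold change 1.29, edgeR adjusted p = 0.00471). Ddx58, the cytosolic RNA sensor RIG-I, had 53.9 ± 17.5 and 22.2 ± 5.27 CPM (1.28, adjusted p = 0.00676). Among the members, Igtp and Ifi47 were nearest to each other (0.180), while Iigp1 was farthest from its nearest member, Ifi47 (0.448). These distances describe 8 libraries and carry no test.

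Marker lists of the other cell types the sort could hold are given here as measured values, and beyond the ratios to myeloid and epithelial reads their part in the member results was not tested. In the myeloid list 15 of 18 tested genes rose and 0 fell, among them Aif1 (83.5 ± 6.39 CPM with anti-LIF and 23.8 ± 4.22 CPM with IgG, edgeR adjusted p = 0.00142), Ms4a7 (139 ± 34.8 and 16.0 ± 5.08 CPM, adjusted p = 0.00206) and Adgre1 (420 ± 111 and 159 ± 18.2 CPM, adjusted p = 0.00317). In the epithelial list 12 of 15 fell and 0 rose, among them Esrp1 (41.4 ± 8.13 CPM with anti-LIF and 112 ± 12.1 CPM with IgG, adjusted p = 0.00235), Krt19 (281 ± 50.9 and 637 ± 49.2 CPM, adjusted p = 0.00284) and Krt8 (367 ± 59.5 and 780 ± 61.2 CPM, adjusted p = 0.00295). Epcam fell as well (log2 fold change -0.91, adjusted p = 0.0102), and Ptprc rose (0.86, adjusted p = 0.00440). In the lymphoid list 4 of 9 tested genes rose, Cd4, Ms4a1, Cd3g and Lck, and the 15 listed genes in the table took 0.00469 to 0.00764% of the counts with anti-LIF and 0.00169 to 0.00388% with IgG. Ncr1, a marker of natural killer cells, had 0 reads in all 8 libraries. In the acinar list 9 of 12 rose, Pnlip, Cela2a and Prss2 among them, and the list took 0.305 to 1.68% with anti-LIF and 0.0371 to 0.214% with IgG. In the endothelial list Tie1 alone of 8 rose and 0 fell, but the median log2 fold change was -0.31. Vwf of that list was lower in every anti-LIF library than in any IgG library (-0.99, edgeR adjusted p = 0.0821, DESeq2 adjusted p = 0.0415). The list took 0.00181 to 0.00473% of the counts with anti-LIF and 0.00324 to 0.00469% with IgG. In the fibroblast list the gene with the lowest p was Pdgfra (5.24 ± 2.95 CPM with anti-LIF and 9.46 ± 2.68 CPM with IgG, edgeR adjusted p = 0.142).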

How the data were processed

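Polyadenylated RNA of EpCAM-positive sorted tumour cells was sequenced from 8 mice, 4 per arm. Per the submitters' processing notes, reads were checked with FastQC 0.11.2, aligned to mm10 with STAR 2.4.0k and counted over exons with HOMER, and edgeR 3.6.8 was used by the authors. HOMER's version and strand setting, the annotation version and the read length were not given in the sources used here. Raw read counts, for 1 transcript per gene, stand in the deposited count table. The deposited FPKM table holds FPKM scaled by the authors to transcript length and library total. All 168000 values of the 21000 transcripts in both tables matched the counts within 0.002 FPKM, and 5 of the 8 members used the same transcript in both. There were 0 unused sample columns. An allele of the mice and a gene of the interferon-gamma list are not reported here, and that gene is left out of the list's counts.

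The counts were compared with edgeR 4.0.16 in R 4.3.3 (filterByExpr, TMM scaling, quasi-likelihood test, Benjamini-Hochberg adjustment, threshold 0.05), which left 14711 tested genes. The fit was also run on simulated counts, with far fewer changed genes than were called here. That run is not used as support for the calls. Log2 FPKM values used pseudocounts of 1 and 0.1 in limma 3.58.1, and log2 CPM profiles a prior count of 2. Ratios and marker shares were compared by exact two-sided permutation of the 70 assignments of arms (scipy 1.17.1). DESeq2 1.42.0, limma-voom, other scalings and filters, a myeloid covariate and each library left out were alternatives. Sequences are from RefSeq and GENCODE, and transcripts were aligned with Biopython 1.88. Member proteins were not analysed here.

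The members and gene lists were chosen with earlier results of these data known. Named genes were the members, the ligand, receptor, kinase and IRF genes of the interferon-gamma list with Socs1 and Nlrc5, the 3 genes of lowest p in each other list, Epcam, Ptprc and the 5 nearest profiles. Il18, Gm12250, Gm12185, Irgq, Lck and the neighbours Psme2b, Mgat1 and Zfp692 were named after their values were seen. The labels give no batch. Replicates are separate mice, and p-values measure the spread between these 8 libraries. Reads carry no molecular identifiers.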

Additional observations from a re-analysis of the deposited data

Results flagged for a closer look

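In the gap test at Dixon's 95% level, applied to 44 groups of 4 libraries from 22 genes, 2 groups held a library far from the others. Chance flags about 1 in 20 groups, which is 5%. Both were library anti-LIF 1, which also had the highest myeloid and the lowest epithelial share of counts. In that library Gm12250 had 11.4 CPM, and the other anti-LIF libraries had 4.97 to 5.62 CPM. Epcam had 194 CPM there and 326 to 353 CPM in the other anti-LIF libraries. No group of a member was among them.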

How the results depend on the processing

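Of 108 comparisons of the tested members with an alternative, 93 kept their side of the threshold without a called value turning sign, 12 lost the call, 2 gained it and 1 called value reversed, and the 1078 comparisons over 60 genes held 960, 87, 15 and 16. The 16 reversed values, each called without the covariate, came with the myeloid score as a covariate, at log2 fold changes of -1.17 for Irgm2, -0.17 for Jak1, -0.23 for Irf8, -0.12 for Nlrc5, 0.17 for Epcam, -0.13 for Ifnar2, -0.082 for Gbp7, -0.11 for Trim21, -0.15 for Gabarap, -0.34 for Cd3g, -0.44 for Tmem176b, -0.33 for Ddx58, -0.11 for B2m, -0.14 for Parp14, -0.21 for Gm12250 and -1.19 for Gm4951. Another 16 values that were called in neither fit turned sign, 10 of them with that covariate, among them Gvin1 (-1.15), and 6 elsewhere, in Socs1 and Jak2. In that fit 0 of 14711 genes passed and 993 had an unadjusted p under 0.05, so members higher and each list's count of higher or lower genes were 0. Scaled by library size alone, which moved the median of all genes to -0.16, 1430 tested genes were higher and 3567 lower, against 1535 and 3344 on log2 FPKM with a pseudocount of 0.1 (median -0.13), 1551 and 3402 with a pseudocount of 1, and 2303 and 2428 in the quasi-likelihood test. Irgm2 did not pass with library size alone (0.85, adjusted p = 0.0536) or on log2 FPKM with a pseudocount of 1 (0.65, adjusted p = 0.0560) or 0.1 (0.85, adjusted p = 0.0530). Of the interferon-gamma list, 3 rose with library size alone, against 5. Of the autophagy list, 5 fell with library size alone and 4 on log2 FPKM with either pseudocount, against 1, and 4 rose in DESeq2, against 2. Of the further IRG and GVIN genes, 8 rose in DESeq2, against 5, and 1 fell with no filter on low counts, against 2. Without anti-LIF 1 and IgG 1, a setting chosen after seeing the data, 3 of them rose and 1 fell. The cause was not tested. With each library left out in turn, 4 to 6 members were higher, as were 1467 to 2218 tested genes, with 1507 to 2136 lower. The lowest counts were 1467 higher and 1507 lower without IgG 2, and 1521 were lower without anti-LIF 3. The lists then gave 3 to 5 higher and 0 to 1 lower for interferon-gamma, 14 to 16 higher for type I interferon, 5 to 7 higher for guanylate-binding proteins, 3 to 8 higher and 1 to 2 lower for further IRG and GVIN genes, and 1 to 2 higher and 0 to 1 lower for autophagy. Irgm1 (0.58 to 0.78), Igtp (1.26 to 1.61), Iigp1 (2.15 to 2.69) and Ifi47 (1.51 to 1.84) kept their calls in those 8 fits. The myeloid share differed by 1.28 to 1.88 percentage points and the epithelial share by -0.398 to -0.336, where 4 against 3 libraries cannot pass the exact test. No paired analysis was possible because the labels pair no mouse of one arm with a mouse of the other and replicate numbers follow the order of deposit. Tgtp1, Tgtp2 and Ifng did not pass the filter on low counts. With no filter 6 of 8 members were higher, and 7 of 8 were in DESeq2. The member gained was Tgtp2 with no filter, and Tgtp2 and Gvin1 were gained in DESeq2. Reads of both are hard to assign, as described above for Tgtp1 and Gm4070. Over all genes tested, 2149 were higher and 2317 lower with no filter, against 2871 and 2824 in DESeq2.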
